A study of Mus musculus with 10 samples.

Results

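The interleukin-1 (IL-1) family is described here in mouse bladder tumours labelled ATM-WT and ATM-KO, through 9 of its genes. They encode the ligands IL-1 alpha, IL-1 beta, IL-18 and IL-33 (Il1a, Il1b, Il18, Il33), the IL-1 receptor antagonist (Il1rn), and the receptor chains Il1r1, Il1r2, Il1rap and Il1rl1. They were taken by gene symbol from a deposited table of 23086 genes, and all 9 were present and passed the filter on low values. RNA was sequenced from 10 urothelial tumours of BBN963, a mouse bladder carcinoma line, 5 labelled ATM-WT and 5 labelled ATM-KO. ATM is the protein kinase that starts the cell's answer to broken DNA. Tumours were taken at 500 mm3, and a portion was frozen for RNA. The labels do not give the strain, sex or age of the host mice, the lesion made in Atm, or the number of knockout clones. They also do not say that each tumour came from its own animal, and the p-values therefore cover only variation among these samples, which may be technical. The single comparison asks how the messenger RNA of tumours labelled ATM-KO differs from that of tumours labelled ATM-WT.

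IL-1 family cytokines are alarm signals that reach cells through paired receptor chains. IL-1 alpha and IL-1 beta bind the IL-1 receptor (Il1r1), IL-33 binds ST2 (Il1rl1), and both receptors then recruit the shared accessory chain Il1rap and signal through MyD88 and IRAK kinases to NF-kB. The antagonist Il1rn occupies the IL-1 receptor without signalling, and Il1r2 is a decoy receptor that binds IL-1 and does not signal. IL-1 beta and IL-18 are matured by caspase-1 in inflammasomes. IL-1 alpha and IL-33 are stored in epithelial and stromal cells, IL-33 in the nucleus, and are released when cells are damaged. ST2 is known from mast cells, group 2 innate lymphoid cells, regulatory T cells and other cells.

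Library values below are the authors' normalized counts. Libraries are named by the number in the table's columns, A1 to A5 for ATM-WT and A11 to A15 for ATM-KO. Library totals lay between 20.2 and 22.3 M (mega) normalized counts. From the spacing of low values, depths were roughly estimated at 8.82 M reads in ATM-WT library A2. The libraries other than A2 and A4 gave 20.6 to 28.3 M. The A4 estimate of 25.4 M is unsure and may be too high. Several low A4 values, such as 2.513 (Myh1), 4.975 (Lep) and 7.406 (Camp), lie near multiples of 2.46, the worth of 1 read in A2. Other low A4 values, such as 8.288 (Il36a), do not. The genes at 0 numbered 4824 in A2 and 4266 in A4, while the remaining libraries had 2225 to 3602. Log2 fold changes, positive where ATM-KO was higher, are differences of log2(value + 1) ± SE, which understate the change of genes with low values. They come from limma fitted to all 16517 genes with a mean of at least 10. A gene was called where its Benjamini-Hochberg adjusted p was under 0.05. Atm messenger RNA did not separate the groups (485 ± 183 against 455 ± 139, mean ± SD, n = 5 each, limma adjusted p = 0.85), so its level does not check the genotype labels, and ATM-WT and ATM-KO are used here as the labels give them. All 12 epithelial markers tested were lower in ATM-KO. Their summed level fell from between 89557 and 254101 in ATM-WT to between 2759 and 4747 in ATM-KO, although all tumours are labelled urothelial. In bulk tumours, fewer cells of a type and less RNA per cell cannot be told apart.

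The 9 genes were called in both directions, as were genes over the whole table. Of the 9 genes, Il1rl1 and Il1rap rose in ATM-KO, Il33, Il1a, Il18 and Il1r1 fell, and Il1b, Il1rn and Il1r2 were not called by limma. The 2 rises and 4 falls stand beside 22.1% and 24.3% of all tested genes called higher and lower, 46.4% in either direction. Over all genes, quantile normalization turned this split to 4514 higher and 3319 lower, from 3649 and 4017, while the 9 genes still gave 2 and 4. The same 6 genes had values that did not overlap between the groups, against 35.2% of all tested genes, or 17.0% with every ATM-KO library above and 18.2% with every ATM-KO library below. The median log2 fold change of the 9 genes was -0.34, and that of all tested genes was 0.00. The counts of 2 rises and 4 falls were the same without libraries A2 and A4. Counts of called marker genes are likewise to be read against the shares of all tested genes. The largest fall and the largest rise among the 9 were those of a ligand and its own receptor, Il33 and Il1rl1.

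**Figure D1:**
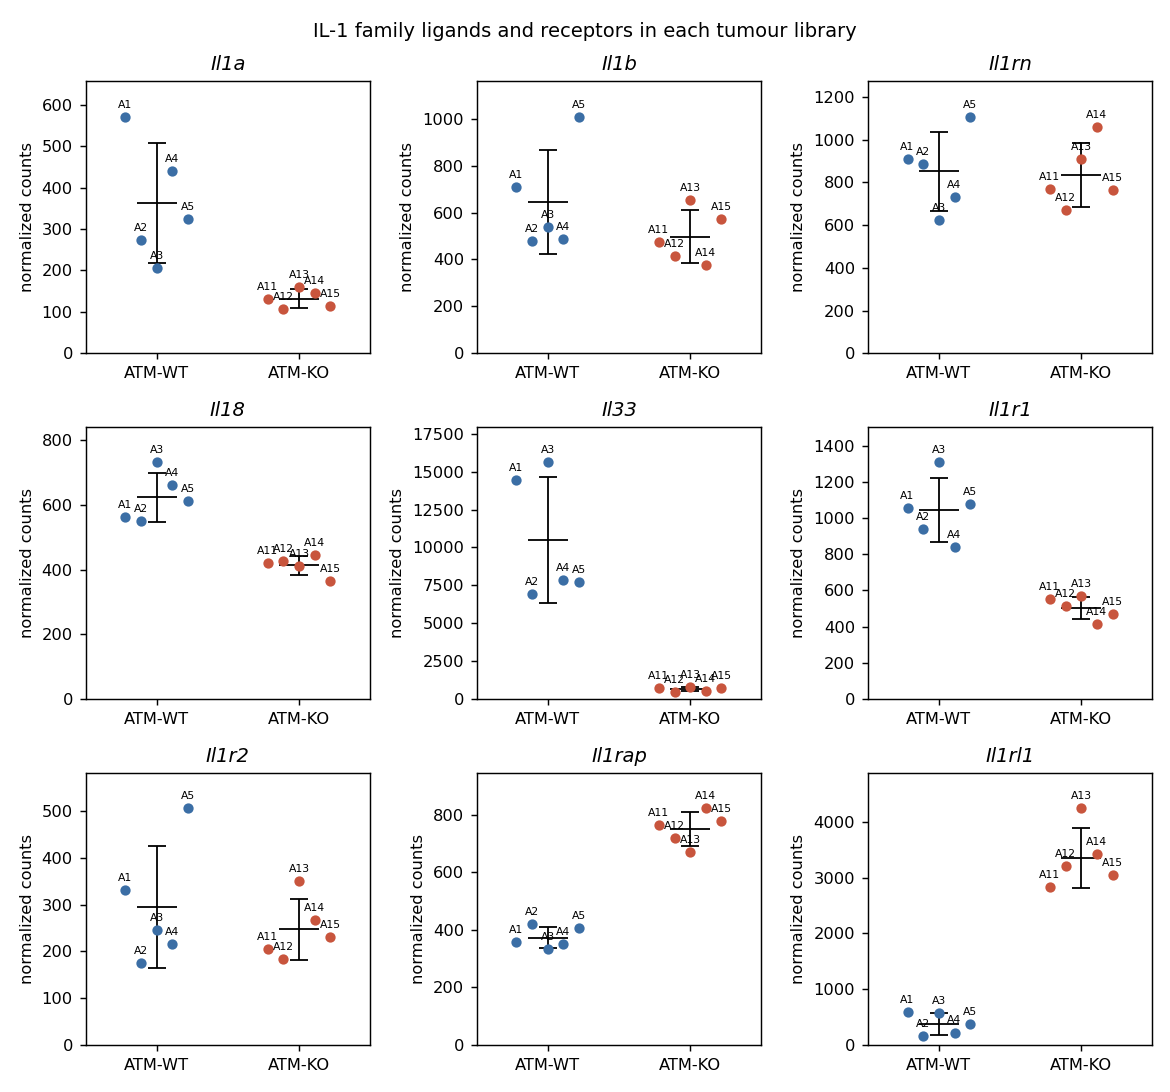
Normalized counts (vertical axes, linear from 0) of the 9 genes in each ATM-WT (blue) and ATM-KO (red) library, with the mean and SD over 5 libraries as a black bar. Il33, Il1a, Il18 and Il1r1 sit lower and Il1rap and Il1rl1 higher in every ATM-KO library, while Il1b, Il1rn and Il1r2 overlap.

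Among the ligands, Il33 had the largest change. In ATM-WT it measured 14461, 6943, 15613, 7829.5 and 7727.5 normalized counts in A1 to A5. In ATM-KO it measured 714.5, 466, 775, 528 and 756 in A11 to A15. Every ATM-KO library lay far below the lowest ATM-WT library, and A1 and A3 stood above the other ATM-WT libraries. The means were 10515 ± 4162 and 648 ± 141 (SD, n = 5 each), so Il33 was 16.2-fold lower in ATM-KO. The log2 fold change was -3.96 ± 0.24 (limma adjusted p = 2.11e-07, 95% interval -4.49 to -3.43). A1 and A3 also had the highest summed fibroblast markers of the ATM-WT libraries (616443 and 642629, against 188159 to 290251 in A2, A4 and A5) and the lowest summed epithelial markers (91322 and 89557, against 151445 to 254101). Across genotypes, 10 of 12 fibroblast markers and 12 of 12 epithelial markers were lower in ATM-KO, among them Dpt (from 4550 ± 3702 to 113 ± 44.7) and Krt19 (from 10238 ± 4181 to 10.2 ± 3.17). Summed fibroblast markers were 47471 to 130831 in ATM-KO. The collagen genes Col1a1, Col1a2 and Col3a1 made up most of the fibroblast sum in every library, so it mainly reflects collagen messenger RNA. The part of these cell types in the fall of Il33 was not tested.

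Il33 has 2 start sites in the RefSeq promoter table (GRCm38.p6), and the deposited table does not separate them. Their upstream windows are shown because Il33 fell furthest of the 9 genes. Each holds the 250 bases before the start, in the direction of transcription on the + strand, and capitals mark TATAAA. The first spans chr19:29924863-29925112 and the second chr19:29945540-29945789.
Il33, first start: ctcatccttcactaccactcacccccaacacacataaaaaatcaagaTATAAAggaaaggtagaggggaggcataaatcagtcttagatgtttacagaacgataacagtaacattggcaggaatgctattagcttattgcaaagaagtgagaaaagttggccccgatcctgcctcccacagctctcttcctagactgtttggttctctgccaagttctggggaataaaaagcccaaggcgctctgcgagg
Il33, second start: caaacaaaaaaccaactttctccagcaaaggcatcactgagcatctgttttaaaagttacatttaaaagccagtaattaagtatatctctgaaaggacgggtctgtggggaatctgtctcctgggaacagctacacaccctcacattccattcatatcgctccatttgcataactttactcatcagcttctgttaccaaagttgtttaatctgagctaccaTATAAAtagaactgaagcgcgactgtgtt
In the second window TATAAA begins 29 bases before the start. In the first it begins 203 bases before the start. TATAAA occurs on either strand in 12.4% of all 32851 windows of this length.

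Il1a fell less than Il33. Its ATM-WT values were 572, 273, 206, 439 and 324.5 in A1 to A5, and its ATM-KO values were 131, 107, 161, 146.5 and 115 in A11 to A15. The lowest ATM-WT library, A3, was above the highest ATM-KO library, A13. The mean went from 363 ± 145 to 132 ± 22.1, a log2 fold change of -1.38 ± 0.26 (limma adjusted p = 8.92e-04), or 2.75-fold lower. The ATM-WT libraries were also more scattered than the ATM-KO libraries.

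Il1b, which lies next to Il1a on mouse chromosome 2, was not called. It measured 709, 479, 540.5, 489 and 1009.5 in A1 to A5 and 473, 417, 652, 376 and 571 in A11 to A15. The ranges overlapped, and A5 and A13 were the highest libraries of their groups. The means of 646 ± 224 and 498 ± 113 gave a log2 fold change of -0.34 ± 0.22, with a 95% interval from -0.82 to 0.14 (limma adjusted p = 0.22). A5 and A13 also had the highest summed neutrophil markers of their groups, 3980 against 2213 to 2694 in the other ATM-WT libraries and 1953 against 626 to 1146 in the other ATM-KO libraries. Of 9 neutrophil markers tested, 6 were lower and 0 higher in ATM-KO, such as Cxcr2 (from 227 ± 94.3 to 61.0 ± 36.1). The part of neutrophils in the Il1b values was not tested. The transcript Il1bos, named for the strand opposite Il1b and singled out after its values were seen, fell from 20.1 ± 6.85 to 4.51 ± 4.04 (limma adjusted p = 0.0136). The strand setting of the authors' counting is not given in the sources used here, so reads of the pair may not be separable.

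Il18 fell modestly and with little spread. It measured 563, 551, 732, 663.5 and 612 in A1 to A5, and 422, 426, 412, 445 and 366 in A11 to A15. No ATM-KO library reached the lowest ATM-WT library. The mean went from 624 ± 75.0 to 414 ± 29.4, a log2 fold change of -0.58 ± 0.12 (limma adjusted p = 0.00149), or 1.51-fold lower.

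The antagonist Il1rn held nearly the same mean level in both groups. Its values were 910, 887, 622, 729 and 1107 in A1 to A5, and 767, 671, 910, 1058 and 765 in A11 to A15. The ranges overlapped over most of their length. The log2 fold change was -0.02 ± 0.17 between means of 851 ± 186 and 834 ± 151, and its 95% interval ran from -0.38 to 0.34 (limma adjusted p = 0.94).

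Among the receptors, Il1rl1, which encodes ST2, rose the most. It measured 587, 152, 565, 222 and 382 normalized counts in A1 to A5, and 2831, 3203, 4245, 3425 and 3051 in A11 to A15. The lowest ATM-KO library was above the highest ATM-WT library by several times the ATM-WT spread, and A2 and A4 were the lowest ATM-WT libraries. The mean rose from 381.5 ± 196 to 3351 ± 545, or 8.78-fold. The log2 fold change was 3.30 ± 0.32 (limma adjusted p = 5.98e-06, 95% interval 2.60 to 4.00), and 2.72 without A2 and A4. The table sums the transcripts of the gene, so the membrane-bound and soluble forms of ST2 could not be told apart.

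Mast cell markers fell while Il1rl1 rose, and no listed marker of regulatory T cells or innate lymphoid cells was called higher. All 8 mast cell markers tested were lower in ATM-KO, and their summed level over 10 genes went from between 933 and 2897 to between 201 and 233. The mast cell protease genes Tpsb2 (from 256 ± 194 to 1.46 ± 0.768) and Cma1 (from 109 ± 65.7 to 2.15 ± 1.36) were near 0 in ATM-KO. Of 9 markers of regulatory T cells and group 2 innate lymphoid cells, 0 were higher and 2 lower by limma. Over all tested genes the shares were 22.1% and 24.3%. The 2 lower were Il17rb (from 197 ± 196 to 2.46 ± 2.29) and Gata3 (from 841 ± 153 to 430 ± 50.1). In ATM-WT, Gata3 was highest in A2, A4 and A5, which also had the highest summed epithelial markers. The part of epithelial cells in its fall was not tested. The other 7 were not called, some with wide 95% intervals, such as Foxp3 (0.80, -0.82 to 2.42) and Klrg1 (-0.58, -1.98 to 0.81). Dendritic cell markers moved in the direction of Il1rl1, with 6 of 10 higher and 0 lower, such as Flt3 (from 36.2 ± 28.96 to 419 ± 32.4) and Itgax (from 857 ± 154 to 2657 ± 368). Summed dendritic markers were 1270 to 2311 in ATM-WT and 4424 to 5456 in ATM-KO. Itgax was the largest term of this sum in every library, followed by Irf8 in most. Other markers of the list were low, such as Xcr1 and Clec9a (means of 31.9 and 62.1 in ATM-KO). The part of dendritic cells in the rise of Il1rl1 was not tested. Macrophage markers gave 1 higher and 2 lower of 14, and their summed levels overlapped between the groups (25296 to 71628 and 43522 to 64062).

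**Figure D2:**
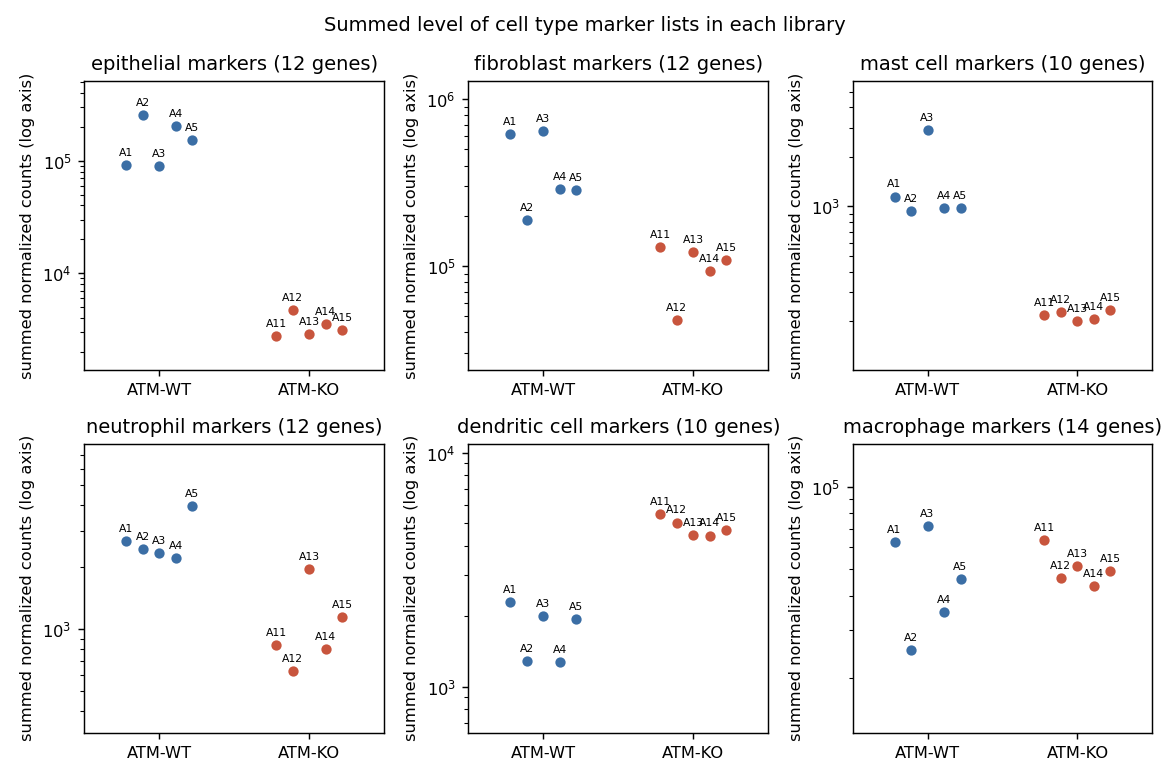
Summed normalized counts (vertical axes, log scale) of marker genes of 6 cell types in each library, ATM-WT in blue and ATM-KO in red. Epithelial, fibroblast, mast cell and neutrophil sums are lower and dendritic cell sums higher in every ATM-KO library, while macrophage sums overlap. A5 and A13 have the highest neutrophil sums of their groups.

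Il1rl1 also has 2 start sites in the RefSeq table (GRCm38.p6, + strand), shown because this gene rose furthest of the 9. The first window spans chr1:40429320-40429569 and the second chr1:40439379-40439628, each the 250 bases before the start, and capitals mark GATAAG, letters of a GATA factor motif.
Il1rl1, first start: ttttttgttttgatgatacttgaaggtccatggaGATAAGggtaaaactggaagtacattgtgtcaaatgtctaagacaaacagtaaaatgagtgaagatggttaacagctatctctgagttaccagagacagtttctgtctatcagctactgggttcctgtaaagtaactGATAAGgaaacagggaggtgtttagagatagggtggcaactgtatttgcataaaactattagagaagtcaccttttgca
Il1rl1, second start: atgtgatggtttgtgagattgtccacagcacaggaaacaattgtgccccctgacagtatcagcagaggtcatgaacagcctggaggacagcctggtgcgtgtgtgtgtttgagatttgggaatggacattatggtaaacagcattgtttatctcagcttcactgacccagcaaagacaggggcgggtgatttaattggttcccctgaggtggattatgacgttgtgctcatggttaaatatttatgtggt
The first window holds GATAAG 2 times and the second 0 times, counting both strands. GATAAG occurs in 6.55% of all 32851 windows. Which start these tumours used cannot be read from the deposited table.

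The accessory chain gene Il1rap rose in every ATM-KO library. It measured 357.5, 418.5, 333.5, 349 and 408 in A1 to A5 and 765, 718, 669, 823 and 778 in A11 to A15. The lowest ATM-KO value was well above the highest ATM-WT value, and the spread was small in both groups. The mean rose 2.01-fold, from 373 ± 37.6 to 750.4 ± 58.9, a log2 fold change of 1.01 ± 0.11 (limma adjusted p = 1.97e-05). The window before its RefSeq start was the richest in G and C of the 14 windows. The 250 bases upstream (chr16:26581455-26581704, + strand, GRCm38.p6) hold 74.4% G and C and 30 CpG dinucleotides, against medians of 52.4% and 6 over all windows. They are printed as the contrast to the Il33 and Il1rl1 windows, whose G and C content was 37.6% to 46.4% with 0 to 4 CpG.
Il1rap: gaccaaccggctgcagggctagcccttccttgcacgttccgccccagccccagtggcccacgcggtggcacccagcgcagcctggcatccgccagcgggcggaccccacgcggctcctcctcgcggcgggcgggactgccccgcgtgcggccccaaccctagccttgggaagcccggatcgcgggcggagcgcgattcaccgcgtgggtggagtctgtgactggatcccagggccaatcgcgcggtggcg
None of the 4 motifs searched on both strands occurs in it. These were the GATA motif GATAAG, the AP-1 motif TGANTCA, the TATA box letters TATAAA, and an NF-kB motif of GGGA and TTCC with any 2 bases between them. The NF-kB motif was found in none of the 14 windows of the 9 genes and occurs in 1.21% of all windows. TGANTCA was found upstream of Il1a and of the first Il1rn start, and occurs in 6.75% of all windows.

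The signalling receptor Il1r1 fell by about the factor by which Il1rap rose. It measured 1055, 938, 1307.5, 839.5 and 1076 in A1 to A5 and 550.1, 513, 571, 416 and 469 in A11 to A15. The groups did not overlap, with A4 the lowest ATM-WT and A13 the highest ATM-KO library. The mean went from 1043 ± 176 to 504 ± 62.5, a log2 fold change of -1.04 ± 0.14 (limma adjusted p = 5.99e-05), or 2.07-fold lower. The chain that binds IL-1 and the chain that it pairs with therefore moved in opposite directions, each with a log2 interval clear of 0.

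The decoy receptor Il1r2 was not called. Its values were 331, 175, 247, 217 and 507 in A1 to A5, and 206, 183, 351, 268 and 230 in A11 to A15. The ranges overlapped, and the highest libraries were again A5 and A13, as for Il1b and for the neutrophil markers. Between means of 295 ± 131 and 247.5 ± 65.6, the log2 fold change was -0.19 ± 0.28, and its 95% interval ran from -0.79 to 0.42 (limma adjusted p = 0.61).

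**Figure D3:**
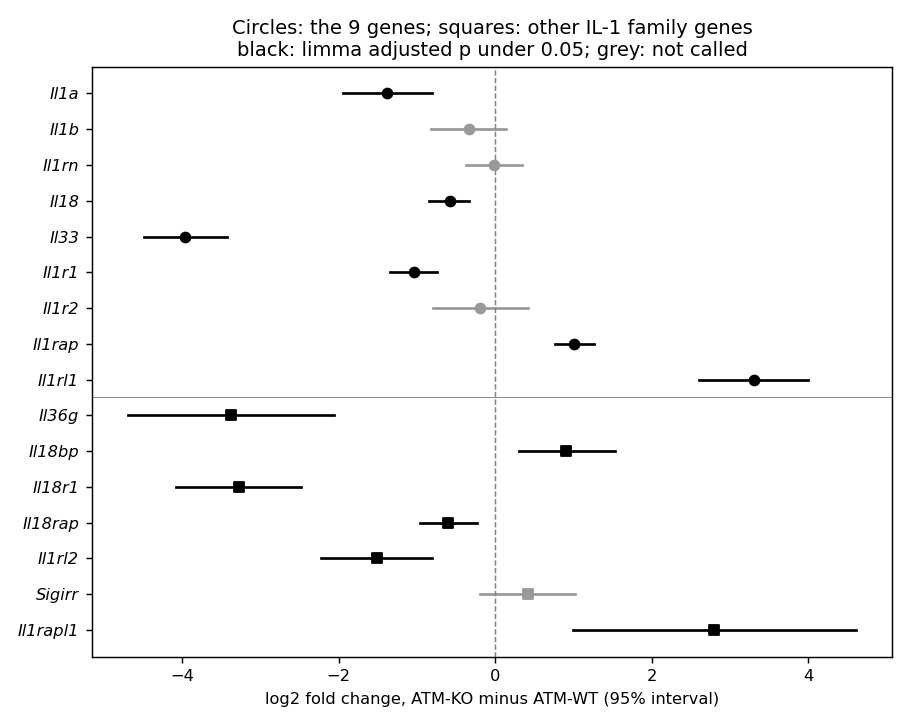
Log2 fold change (horizontal axis, ATM-KO minus ATM-WT) with its 95% interval for the 9 genes (circles) and the 7 other tested IL-1 family genes (squares), black where called by limma and grey where not. Il33 lies at -3.96 and Il1rl1 at 3.30, at opposite ends of the 9 genes.

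Per kilobase of the longest protein-coding transcript in GENCODE M21, the order of the levels differed between the genotypes. In ATM-WT the mean level of Il33 was 4133 ± 1636 normalized counts per kilobase, above Il18 at 705 ± 84.7, Il1b at 476 ± 165 and Il1rn at 344 ± 75.1. Below these came Il1r2 (208 ± 92.5), Il1a (184 ± 73.2), Il1r1 (179 ± 30.2), Il1rap (82.6 ± 8.32) and Il1rl1 (72.0 ± 37.0). In ATM-KO, Il1rl1 had the highest mean of the 9 at 632 ± 103 per kilobase, followed by Il18 (468 ± 33.2), Il1b (367 ± 83.4), Il1rn (337 ± 61.2), Il33 (255 ± 55.5), Il1r2 (174 ± 46.2), Il1rap (166 ± 13.0), Il1r1 (86.6 ± 10.7) and Il1a (66.9 ± 11.2). Neighbours whose means ± SD overlap, such as Il1r2, Il1a and Il1r1 in ATM-WT or Il1b and Il1rn in either group, are not ordered by these data. The transcripts actually used are not known, so the scale is approximate.

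The balance between ligands and their inhibitors was computed in each library as a difference of log2(value + 1). The balances reuse the values of the single genes and are not independent of those results. They are not corrected for gene length. Only the shift between the groups can therefore be read, not which gene of a pair has more transcripts. The balance of the antagonist Il1rn against Il1a was 1.29 ± 0.54 in ATM-WT and 2.65 ± 0.14 in ATM-KO (SD, n = 5 each). This is a shift of 1.36 (exact two-sided permutation p = 0.0079, adjusted over 5 balances 0.02), and the ranges of 0.67 to 1.77 and 2.49 to 2.84 did not overlap. Against Il1b the antagonist shifted by 0.32, from 0.43 ± 0.31 to 0.75 ± 0.43 (exact permutation p = 0.21, adjusted 0.21), and the ranges overlapped. Il1a moved relative to Il1b by -1.03 (exact permutation p = 0.024, adjusted 0.04). The decoy Il1r2 moved relative to Il1r1 by 0.85, from -1.90 ± 0.56 to -1.05 ± 0.39 (exact permutation p = 0.032, adjusted 0.04). The IL-18 binding protein gene Il18bp encodes a soluble inhibitor. Its balance against Il18 went from -0.94 ± 0.64 in ATM-WT to 0.55 ± 0.43 in ATM-KO. This is a shift of 1.5 (exact permutation p = 0.0079, adjusted 0.02). The smallest p that 5 against 5 libraries can give is 0.0079. The call for Il1a against Il1b was lost without any 1 library other than A5 or A14, and that for Il1r2 against Il1r1 without any 1 library other than A5. Without A2 and A4 together, the shifts were 1.31 for Il1rn against Il1a and 1.25 for Il18bp against Il18, against 1.36 and 1.5 with all libraries. With 3 against 5 libraries the smallest exact p is 0.036, and an adjusted p under 0.05 would need at least 4 of the 5 balances to reach it.

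Other members of the family also moved in both directions. Of 12 further ligands, receptors and inhibitors listed, 9 were in the table and 7 were tested. By limma, 4 of the 7 were lower and 2 higher in ATM-KO (median -0.60), and 0 were higher without A2 and A4. These counts stand beside 24.3% of all tested genes called lower and 22.1% called higher. The IL-36 gamma gene Il36g, an epithelial ligand, fell from 160 ± 146 to 13.3 ± 7.85 (log2 fold change -3.37 ± 0.61, limma adjusted p = 6.06e-04, and -2.68 without A2 and A4), and its receptor gene Il1rl2 fell from 457 ± 259 to 145 ± 32.4 (-1.51 ± 0.33). In ATM-WT, both Il36g (157 and 412) and Il1rl2 (576 and 860) were highest in A2 and A4, the libraries with the highest summed squamous markers (103504 and 85083, against 15270 to 38665). Il36a and Il36b were below the filter, with at most 8.29 and 18.2 in any library, and all 5 ATM-KO libraries listed Il36a at 0. Il36rn, Il1f10 and Il1rapl2 were not analysed here. The inhibitory receptor gene Sigirr was not called (228.5 ± 103 and 290.5 ± 64.5, limma adjusted p = 0.24). Il1rapl1, a family member known from neurons, rose from 4.88 ± 7.86 to 21.5 ± 10.3 (2.80 ± 0.83, limma adjusted p = 0.0148), and this call was lost without A2 and A4 (1.75, adjusted p = 0.063). The size of the Il1rapl1 rise was unsettled, at 3.48 without ATM-WT library A1, 1.62 with a pseudocount of 5 and 3.45 with quantile normalization. Il18bp rose from 342 ± 129 to 636 ± 222 (0.91 ± 0.28, limma adjusted p = 0.0188). The Il18bp call was lost without ATM-KO library A11 (0.75, adjusted p = 0.052) or A14 (0.82, adjusted p = 0.051), without A2 and A4 (0.64, adjusted p = 0.071) and with sample weights (0.70, adjusted p = 0.07).

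Receptor genes that lie side by side moved apart. On mouse chromosome 1 the coding genes Il1r2, Il1r1, Il1rl2, Il1rl1, Il18r1 and Il18rap follow each other without another coding gene between them (RefSeq, GRCm38.p6), and their log2 fold changes were -0.19, -1.04, -1.51, 3.30, -3.28 and -0.60 in that order. Il1rl1 was thus the 1 gene of the 6 that rose, between a pair that fell. Its neighbour Il18r1, the IL-18 receptor chain that binds the ligand, held 513, 390, 371, 369.5 and 519 in A1 to A5 and 121, 46.1, 38.4, 27.9 and 24.7 in A11 to A15. The groups did not overlap, and A11 was the highest ATM-KO library. Il18r1 went from 433 ± 76.8 to 51.6 ± 39.7 (-3.28 ± 0.37, limma adjusted p = 1.78e-05). Il18rap, the accessory chain for IL-18, went from 565 ± 112 to 372.5 ± 65.6 (-0.60 ± 0.17, limma adjusted p = 0.0116). T and NK cell markers, genes of cells that carry the IL-18 receptor, gave 2 higher and 0 lower of 11. Over all tested genes 22.1% were called higher and 24.3% lower. The granzyme gene Gzma rose from 139 ± 91.7 to 713.5 ± 354, and Cd4 from 102 ± 43.6 to 171 ± 37.8, a call lost under most alternatives, among them without A2 and A4 (0.36, limma adjusted p = 0.23).

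**Figure D4:**
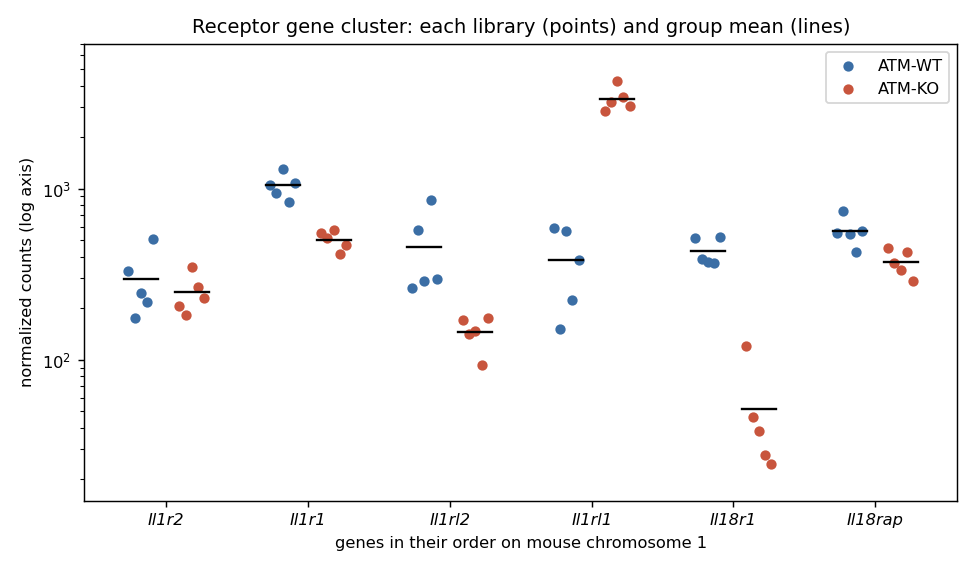
Normalized counts (vertical axis, log scale) of the 6 neighbouring receptor genes in their order on mouse chromosome 1, with ATM-WT libraries in blue, ATM-KO libraries in red and group means as lines. Il1rl1 is higher in every ATM-KO library, Il1r1, Il1rl2 and Il18r1 are lower in every one, and Il1r2 and Il18rap overlap.

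Genes around the family were counted as lists, to be read against the 22.1% of all tested genes called higher and the 24.3% called lower. Nothing particular to a list is drawn from these counts. Among genes that mature or release the ligands, 1 of 15 tested rose and 3 fell (median -0.35). The DNA sensor gene Aim2 rose from 126.5 ± 76.6 to 519.8 ± 57.5 (log2 fold change 2.26, and 1.61 without A2 and A4), while the inflammasome adaptor gene Pycard (from 527 ± 230 to 237 ± 43.2) and the caspase genes Casp1 (from 608 ± 108 to 292 ± 85.9) and Casp8 (from 1210 ± 166 to 926 ± 61.1) fell. With sample weights, or without A2 and A4, 7 members of this list fell. In the relay from the receptors to NF-kB, 3 of 21 tested rose and 5 fell (median -0.03). The kinase genes Map3k7 (from 1671 ± 166 to 2854 ± 198) and Irak4 (from 450 ± 65.7 to 684 ± 32.0) and the ubiquitin conjugase gene Ube2n (from 3153 ± 371 to 4931 ± 312) rose, and Irak1 (from 2397 ± 235 to 1687 ± 154) fell.

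Of genes known to be induced by IL-1, 4 of 25 tested were higher and 7 lower (median -0.30), beside the same 22.1% and 24.3% of all tested genes. The lipocalin gene Lcn2 (from 1489 ± 737 to 11.5 ± 9.15), the neutrophil chemokine gene Cxcl5 (from 4098 ± 1175 to 851 ± 464), the adhesion gene Icam1 (from 1079.5 ± 295 to 347 ± 88.4) and the granulocyte growth factor gene Csf3 (from 83.5 ± 20.6 to 5.93 ± 4.80) had the smallest p in the list, and all were lower. Lcn2 and Cxcl5 are also made by epithelia, whose markers fell, and the part of that fall was not tested. Genes linked to IL-33 and IL-18 responses gave 4 higher and 2 lower of 12 (median 0.02). The chemokine genes Ccl24 (from 4.81 ± 5.13 to 352 ± 107), Ccl17 (from 48.1 ± 30.1 to 362 ± 172) and Ccl22 (from 69.5 ± 28.2 to 259 ± 69.0) rose and Gata3 fell. As given above, Gata3 was highest in the ATM-WT libraries with the highest summed epithelial markers. The type 2 cytokine gene Il5 was below the filter.

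**Figure D5:**
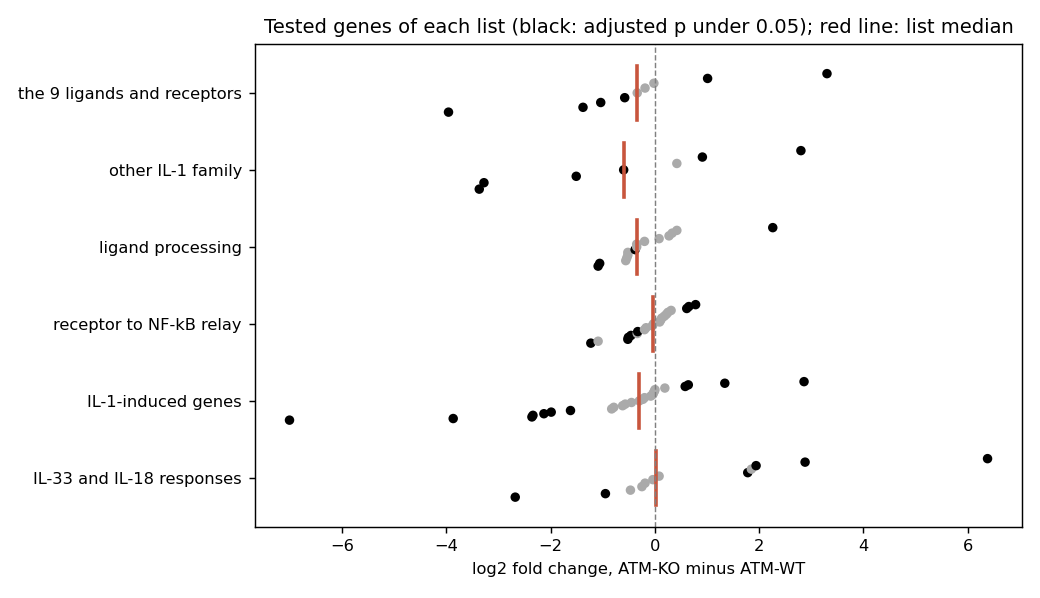
Log2 fold change (horizontal axis, ATM-KO minus ATM-WT) of each tested gene in 6 lists, black where called by limma and grey where not, with the list median as a red line. Each list holds genes on both sides of 0, and the medians lie between -0.60 and 0.02.

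Genes with the pattern most like each member were found by the root-mean-square difference of centred log2(value + 1) profiles over 10 libraries, among 13348 genes with a mean of at least 50. The closest to Il33 were Cacna1g (0.25) and Scarf2 (0.28), which went from 2393 ± 1253 to 125 ± 40.6 and from 3519 ± 1253 to 310.5 ± 63.6. The closest to Il1rl1 were Akap12 (0.30, from 410 ± 254 to 2705 ± 84.4) and Chst7 (0.31). For Il1rap they were Hsp90aa1 and Timm23 (0.08 each), for Il1r1 Npdc1 and Pef1 (0.13 each), for Il18 Snapin and Crbn (0.09 each) and for Il1a Klhl36 (0.25) and Gm43126 (0.28). For Il1rn they were Sap30bp (0.15) and Slfn2 (0.16), for Il1b Vasp (0.20) and Pfkfb4 (0.21), and for Il1r2 Sh2d3c (0.20) and Il1b itself (0.25). The measure is a description of these libraries with no test.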

How the data were processed

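Tumour RNA of 5 ATM-WT and 5 ATM-KO samples was sequenced. The authors deposited normalized counts per gene symbol, a signal that is never negative, with 1 column per library. The submitters' processing notes name STAR, Salmon and DESeq2. Not given in the sources used here: tool versions and settings, genome build, annotation. Column names carry the genotype and a library number found in no label, so columns were mapped to groups only.

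Trial values of 0.7 to 4 for 1 read left at best 58.9% to 69.0% of low values (up to 20 reads) within 0.05 of whole numbers. Reads were therefore not recovered, no count model was run, and depths are rough. Genes with a mean of at least 10 were fitted as log2(value + 1) in limma 3.58.1 (lmFit, eBayes with trend, R 4.3.3). Balances between genes were compared by exact two-sided permutation tests (scipy 1.17.1). Simulated data for the ATM-KO and ATM-WT comparison had 200 altered genes among 16038. The fit found 65% of those altered 2-fold and 89% of those altered 4-fold, none in the wrong direction, and called 3 of 15838 unaltered genes. The altered genes were drawn from those with higher ATM-WT levels, and the noise was normal. The altered share was far below the 46.4% of genes called in the data, so these rates do not carry over to the data.

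The members and gene lists were chosen with earlier results of these data known. Named are Atm, the 9 genes, all further family members, up to 4 genes per pathway list and up to 2 per described marker list with the smallest p, and the 2 genes most alike in pattern. All 9 genes matched the RefSeq promoter table by symbol, with 14 windows. As the authors' build is unknown, coordinates belong to RefSeq's GRCm38.p6 only. Alternatives covered the pseudocount, filter, scaling, eBayes settings, sample weights and leaving out each library. Leaving out A2 and A4 together was chosen after seeing the data.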

Additional observations from a re-analysis of the deposited data

Results flagged for a closer look

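In 17 of 118 groups of 5 values, the highest or lowest library lay apart from the others by Dixon's test. Values of genes were tested without a logarithm, which favours high outliers. The rate of about 1 in 20 by chance holds for normally distributed values, so no excess is read from the 17. None of the 17 was one of the 9 genes, and no cause was tested. In the family, Il36g stood at 411.6 normalized counts in ATM-WT library A4 (others 65.7 to 157), Il18r1 at 121.0 in ATM-KO library A11 (others 24.7 to 46.1) and Il1rapl1 at 18.45 in ATM-WT library A1 (others up to 4.97). The balance of Il1rn over Il1b was 1.49 log2 units in ATM-KO library A14 (others 0.42 to 0.70).

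ATM-WT library A3 was the high library for the mast cell genes Tpsb2 (592.8) and Cma1 (225.6), for Il17rb (536.5), for the adipocyte gene Cfd (222.7, the others at 0) and for the muscle gene Ckm (263.6). Il1rl1 was 565 in A3, within the ATM-WT range. In ATM-KO, A13 was high for Cxcl5 (1663.9, others 530.4 to 780.5) and Krt19 (15.75), and A11 was high for Icam1 (502.5) and low for Egfl7 (459.7, others 738 to 800.0). A15 was low for Map3k7 (2502.7), A14 was low for Ube2n (4387.1) and high for Krt6b (8.042), and A12 was high for Krt8 (34.19).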

How the results depend on the processing

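The 9 genes kept their calls under all 20 alternatives, and 170 of the 180 results kept both direction and call. The other 10 were changes of sign of Il1rn and Il1r2, which were never called. Quantile normalization shifted the median over all genes to 0.15 (log2), and gave 0.02 for Il1rn, 0.07 for Il1r2 and 0.07 for Atm. Upper-quartile scaling gave 0.02 for Il1rn. Leaving out 1 library at a time gave -0.13 to 0.08 for Il1rn, -0.35 to 0.03 for Il1r2 and -0.21 to 0.12 for Atm. The shift of Il1a against Il1b ranged from -1.23 to -0.86 and that of Il1r2 against Il1r1 from 0.72 to 1.06. Without A2 and A4, Atm was 0.06, and the balances shifted by 1.31 (Il1rn against Il1a, exact permutation adjusted p = 0.06), -0.78 (Il1a against Il1b, adjusted p = 0.13), 0.67 (Il1r2 against Il1r1, adjusted p = 0.14) and 1.25 (Il18bp against Il18, adjusted p = 0.06), all past the threshold with 5 against 5 libraries. The shift of Il1rn against Il1b, 0.32 with all libraries, grew to 0.52 (adjusted p = 0.06). With 3 against 5 libraries the smallest exact p is 0.036, so these adjusted values say little about stability. No paired analysis was possible because the table's columns carry no sample number of the labels. Genes with few counts, such as Il36a, Il36b and Il1rapl1, are the least precise. A2 and A4 had the most genes at 0. The depth of A4 is unsure and may be lower than estimated, and whether depth accounts for the genes at 0 was not tested.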
